A study of Mus musculus with 24 samples.

Results

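The levels of 8 immediate early and stress genes, Fos, Jun, Junb, Egr1, Nr4a1, Dusp1, Ier2 and Gadd45b, were followed through sorted mouse leukocytes. All 12 probe sets annotated to exactly 1 of these genes were taken, of 12422 tested, and all 8 genes were measured, of 8251. Fos, Junb, Egr1 and Gadd45b each had 2 probe sets, and the other genes had 1. The array data came from 24 arrays in 10 groups, given by 5 cell populations on 2 backgrounds. One background was C57Bl/6 with the H2g7/g7 haplotype (B6g7), and the other was NOD. Infiltrates and T cells came from mice with the BDC2.5 transgene, which supplies T cell receptor genes and directs CD4 T cells against pancreatic islets. The labels call the islet infiltrate aggressive on B6g7 and benign on NOD.

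Total pancreatic infiltrate, sorted as viable CD45+ cells, had 3 B6g7 arrays (25, 28 and 24 days of age, in replicate order) and 3 NOD arrays (25 days each). CD4+ T cells with a high level of the BDC2.5 clonotype came from the pancreas and from the pancreatic lymph node. The pancreatic T cells had 2 B6g7 arrays (25 and 22 days) and 3 NOD arrays (24, 24 and 25 days). The lymph node T cells had 2 B6g7 arrays (25 and 22 days) and 3 NOD arrays (24, 22 and 25 days). Splenic natural killer (NK) cells, sorted as viable Asialo GM1+ CD45+ cells, had 2 arrays per background. On B6g7 the NK cell donors had no transgene and were 6 and 3 weeks old. For NOD NK cells no age is given, and array 2 carries a BDC2.5 label. Splenic leukocytes, sorted as viable CD45+ cells, had 2 arrays per background with no age or transgene given. The labels name no stimulus for any group. Whether replicate arrays stand for different mice is not stated, and p-values therefore reflect the array-to-array spread alone, which may be technical.

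Immediate early genes are transcribed within minutes of a signal, without new protein synthesis, and their transcripts decay quickly. In T cells, engagement of the antigen receptor induces them through MAP kinase, calcium and NF-kB signalling. Fos, Jun and Junb encode subunits of the transcription factor AP-1, Egr1 a zinc finger transcription factor, and Nr4a1 the orphan nuclear receptor Nur77. Dusp1 encodes a phosphatase that switches off MAP kinases, Gadd45b a stress protein that binds an upstream kinase of the p38 and JNK pathways, and Ier2 a small nuclear protein. Mechanical stress, enzymatic digestion and warming during cell isolation are known to induce the same genes.

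Promoters are shown for 4 members: Fos, Dusp1 and Nr4a1, whose levels moved together between arrays of a group, and Gadd45b, whose level differed between the backgrounds. Each line holds the 250 bases before the gene's start, 5′ to 3′ on the gene's strand, from RefSeq on GRCm38.p6. Capitals mark the letters TGACGT (the short form of a cyclic AMP response element) and TGACGTCA (the whole element, which contains TGACGT), or GCGNGGGCG (the EGR motif), each searched on both strands. Promoters were found for 6 of the 8 members, those named here together with Jun and Junb.
Gadd45b, chr10:80929841-80930090, plus strand: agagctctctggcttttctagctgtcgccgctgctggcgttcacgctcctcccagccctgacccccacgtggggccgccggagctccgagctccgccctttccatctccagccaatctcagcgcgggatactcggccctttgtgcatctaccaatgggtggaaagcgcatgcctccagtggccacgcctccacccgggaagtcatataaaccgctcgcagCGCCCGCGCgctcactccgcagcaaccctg
Nr4a1, chr15:101266596-101266845, plus strand: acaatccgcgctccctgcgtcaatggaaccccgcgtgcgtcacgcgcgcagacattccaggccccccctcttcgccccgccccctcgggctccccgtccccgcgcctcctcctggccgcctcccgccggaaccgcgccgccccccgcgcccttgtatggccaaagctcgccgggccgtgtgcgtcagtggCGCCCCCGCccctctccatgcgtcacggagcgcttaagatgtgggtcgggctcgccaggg
Fos, chr12:85473640-85473889, plus strand: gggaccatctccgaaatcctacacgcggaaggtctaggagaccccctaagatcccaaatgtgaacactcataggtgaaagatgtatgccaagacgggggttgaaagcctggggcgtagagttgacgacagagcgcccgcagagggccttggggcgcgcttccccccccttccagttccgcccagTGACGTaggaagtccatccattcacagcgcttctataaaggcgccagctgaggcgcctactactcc
Dusp1, chr17:26508473-26508722, minus strand: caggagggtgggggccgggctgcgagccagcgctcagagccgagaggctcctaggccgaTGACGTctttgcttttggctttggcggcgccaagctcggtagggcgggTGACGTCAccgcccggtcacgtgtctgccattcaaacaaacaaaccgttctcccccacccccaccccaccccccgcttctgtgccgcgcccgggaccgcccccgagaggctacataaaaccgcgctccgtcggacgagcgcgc

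The EGR motif stood at positions -30 to -22 before the start of Gadd45b and at -60 to -52 before that of Nr4a1, and 4.70% of 32851 promoters held it. The letters TGACGT stood at -66 to -61 in Fos and at -191 to -186 in Dusp1, against 6.47% of all promoters. Dusp1 also held the whole TGACGTCA at -143 to -136, as did 1.55% of promoters. The TATA box letters TATAAA were found in Fos at -33 to -28 and in Gadd45b at -46 to -41, and in 12.4% of promoters. The AP-1 motif TGANTCA and the CArG box, the site of serum response factor, were in none of the 6 member promoters over these 250 bases, against 6.75% and 1.47% of all promoters. These matches describe the letters only.

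All levels below are log2 of the intensity, which is relative and compares only within a probe set. Liver transcripts, absent from leukocytes, served as a rough guide to the level of an absent transcript, which differs between probe sets. Apoa1, for example, read up to 5.48 in B6g7 spleens. In 18 arrays without liver RNA, as defined by the same Fabp1 and Alb probe sets, Fabp1 read 3.22 to 4.36 and Alb 4.01 to 4.90. The second Fos probe set (161716_at, 3.18 to 4.42) and the second Egr1 probe set (161802_i_at, 3.55 to 4.57) lay in or below that range on every array, and Jun (4.16 to 5.19) lay in or just above it. The remaining 9 probe sets reached higher levels. The other 6 arrays carried liver transcripts: B6g7 infiltrates 1 and 2, array 1 of the pancreatic T cells of both backgrounds, and array 1 of the lymph node T cells of both backgrounds. The T cell marker sum (4 genes) was 9.95 to 10.86 in the T cell groups, 8.19 to 9.68 in the NK groups and 8.95 to 9.76 in infiltrates. The NK marker sum (3 genes) was 9.77 to 11.03 in the NK groups, against 5.65 to 6.42 in T cells. The NK arrays also carried granulocyte markers (4 genes), from 8.05 in NOD array 1 to 14.26 in NOD array 2. RNA was amplified in 2 rounds for every population except spleen, which had 1 round. The Gapdh control, read as 3′ minus 5′ probe sets, tracks RNA quality and amplification and was 0.21 to 0.37 in spleen, 2.56 to 4.87 in infiltrates and T cells, and 4.32 to 5.27 in NK cells.

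**Figure D1:**
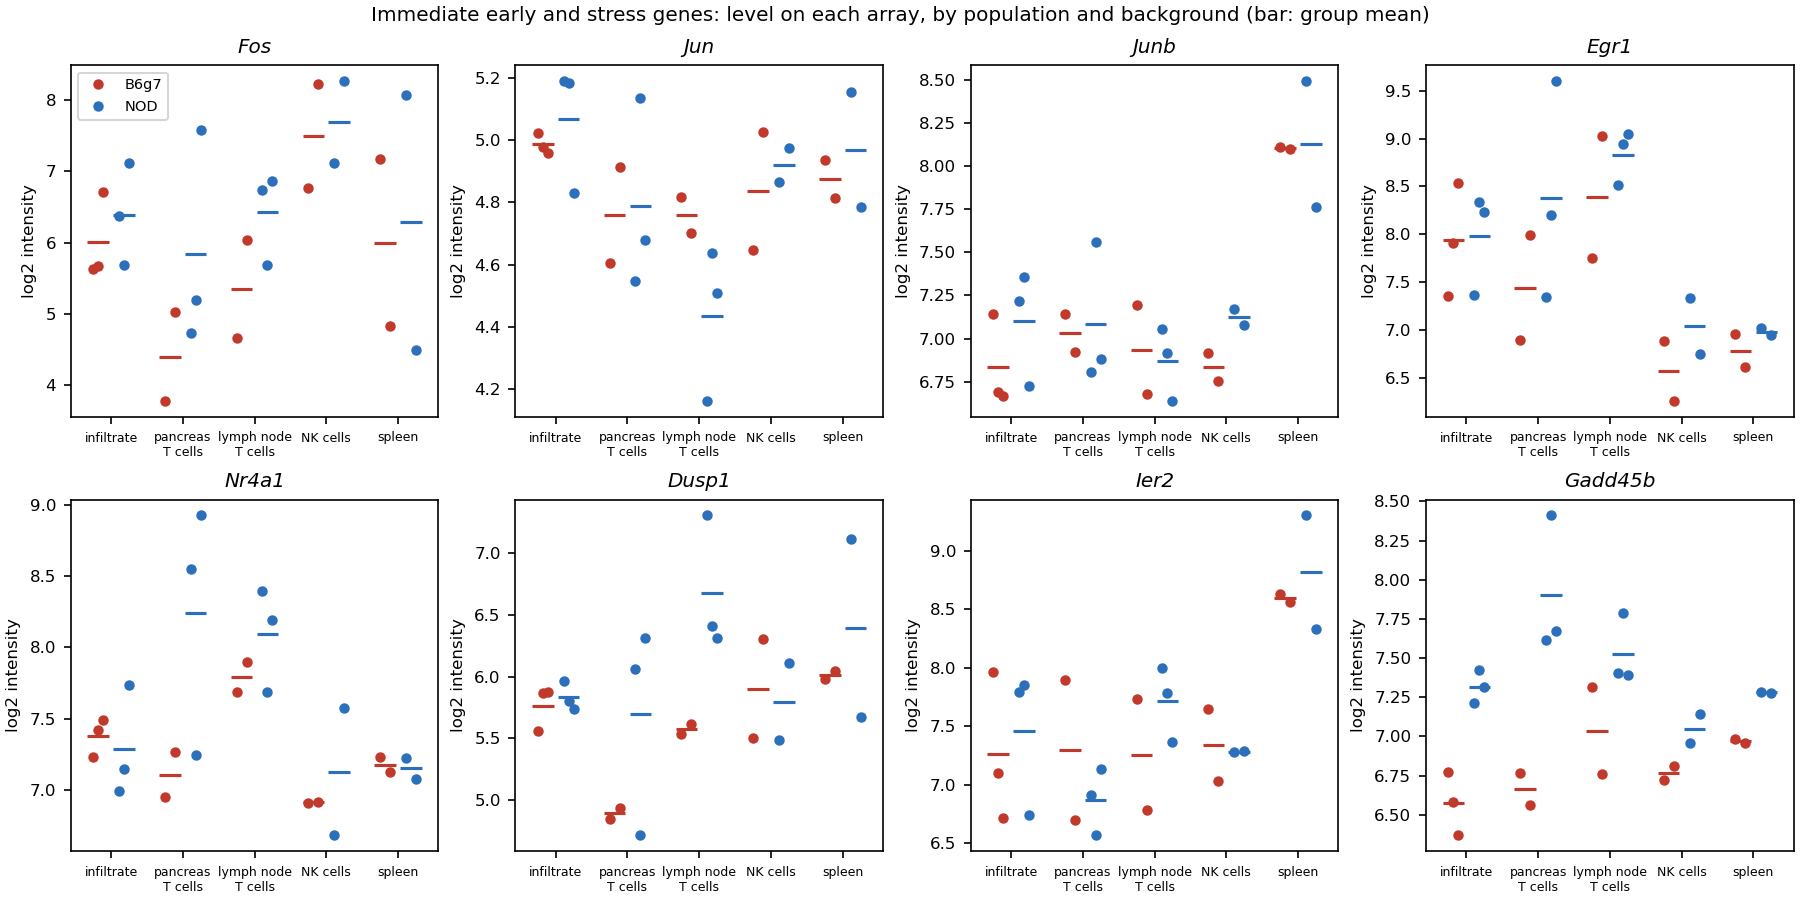
Level of each gene's brightest probe set on each array (y axis, log2 intensity, its own scale in each panel) by population (x axis), with B6g7 arrays left of NOD arrays and a bar at the group mean. Gadd45b is lower in B6g7 in each population, Junb and Ier2 are highest in spleen, and Fos spreads widely within groups.

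By its brightest probe set (102779_at), Gadd45b read lower on B6g7 than on NOD in all 5 populations, and the difference passed the test in pancreatic T cells. There it read 6.76 and 6.56 on B6g7 arrays, against 7.62, 8.41 and 7.67 on NOD arrays. In lymph node T cells it read 7.31 and 6.76 on B6g7 and 7.40, 7.79 and 7.39 on NOD. The B6g7 arrays were thus below the NOD arrays at both sites, and NOD pancreatic array 2 was the highest of all 24. In infiltrates the values were 6.77, 6.58 and 6.37 on B6g7, against 7.21, 7.43 and 7.32 on NOD. NK cells read 6.72 and 6.81 on B6g7 and 6.95 and 7.14 on NOD. Spleens read 6.98 and 6.96 on B6g7 and 7.29 and 7.27 on NOD. In none of the 5 populations did the arrays of the backgrounds overlap, which was so for 8 of 12422 probe sets in this direction (0.0644%) and for 29 in the other (0.233%). The second Gadd45b probe set (161666_f_at) kept the backgrounds apart in 3 of the 5 populations. It overlapped in lymph node T cells and in spleen, where it averaged 5.97 on both B6g7 and NOD.

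The B6g7 minus NOD difference of Gadd45b in pancreatic T cells was -1.24 on the log2 scale, 2.36-fold lower (SE 0.22, limma, adjusted p = 0.026). It was the single member probe set of 12 past the threshold there, where 0.145% of all probe sets passed in either direction and 0.0483% as lower. Its adjusted p was 0.202 without B6g7 array 1, 0.176 without B6g7 array 2 and 0.097 after quantile normalization. It was 1.0 when only these 5 arrays were fitted and 0.253 without the arrays that carry liver transcripts, while the difference stayed between -1.48 and -0.98 throughout. The second probe set read 6.11 and 5.60 on B6g7, against 7.27, 9.25 and 6.41 on NOD, with a difference of -1.79 (SE 0.52, adjusted p = 0.353). Over the 24 arrays the 2 probe sets correlated at r = 0.82. T cell marker sums were 10.05 to 10.40 on B6g7 and 9.95 to 10.30 on NOD in these pancreatic samples, and liver marker sums reached 12.96 on B6g7 and 13.99 on NOD.

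In the other populations the same probe set gave -0.74 in infiltrates (SE 0.19, adjusted p = 0.194), -0.49 in lymph node T cells (SE 0.22, adjusted p = 0.688), -0.28 in NK cells and -0.31 in spleen, none past the threshold. In these infiltrates the NK marker sum was 8.44 to 8.79 on B6g7, against 6.70 to 7.56 on NOD, and its part in the Gadd45b difference was not tested. Averaged over the 5 populations, a comparison chosen after seeing the data, Gadd45b was 0.61 lower on the log2 scale on B6g7 (difference -0.61, SE 0.10, limma, adjusted p = 0.00225). In this average 1.17% of all probe sets passed and 102779_at was the only member probe set to do so. The second Gadd45b probe set gave -0.55 in the same average (SE 0.24, adjusted p = 0.669). The call of 102779_at held in each of 24 fits that left out 1 array, with adjusted p between 6.58e-04 and 0.00883. The submitters' notes name RMA for all 3 B6g7 infiltrates and no NOD infiltrate, but for all 3 NOD pancreatic T cell arrays and no B6g7 one. They also name it for both NOD spleens and no B6g7 spleen, for 2 B6g7 and 1 NOD NK arrays, and for no lymph node T cell array. The part of this processing in these differences was not tested.

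**Figure D2:**
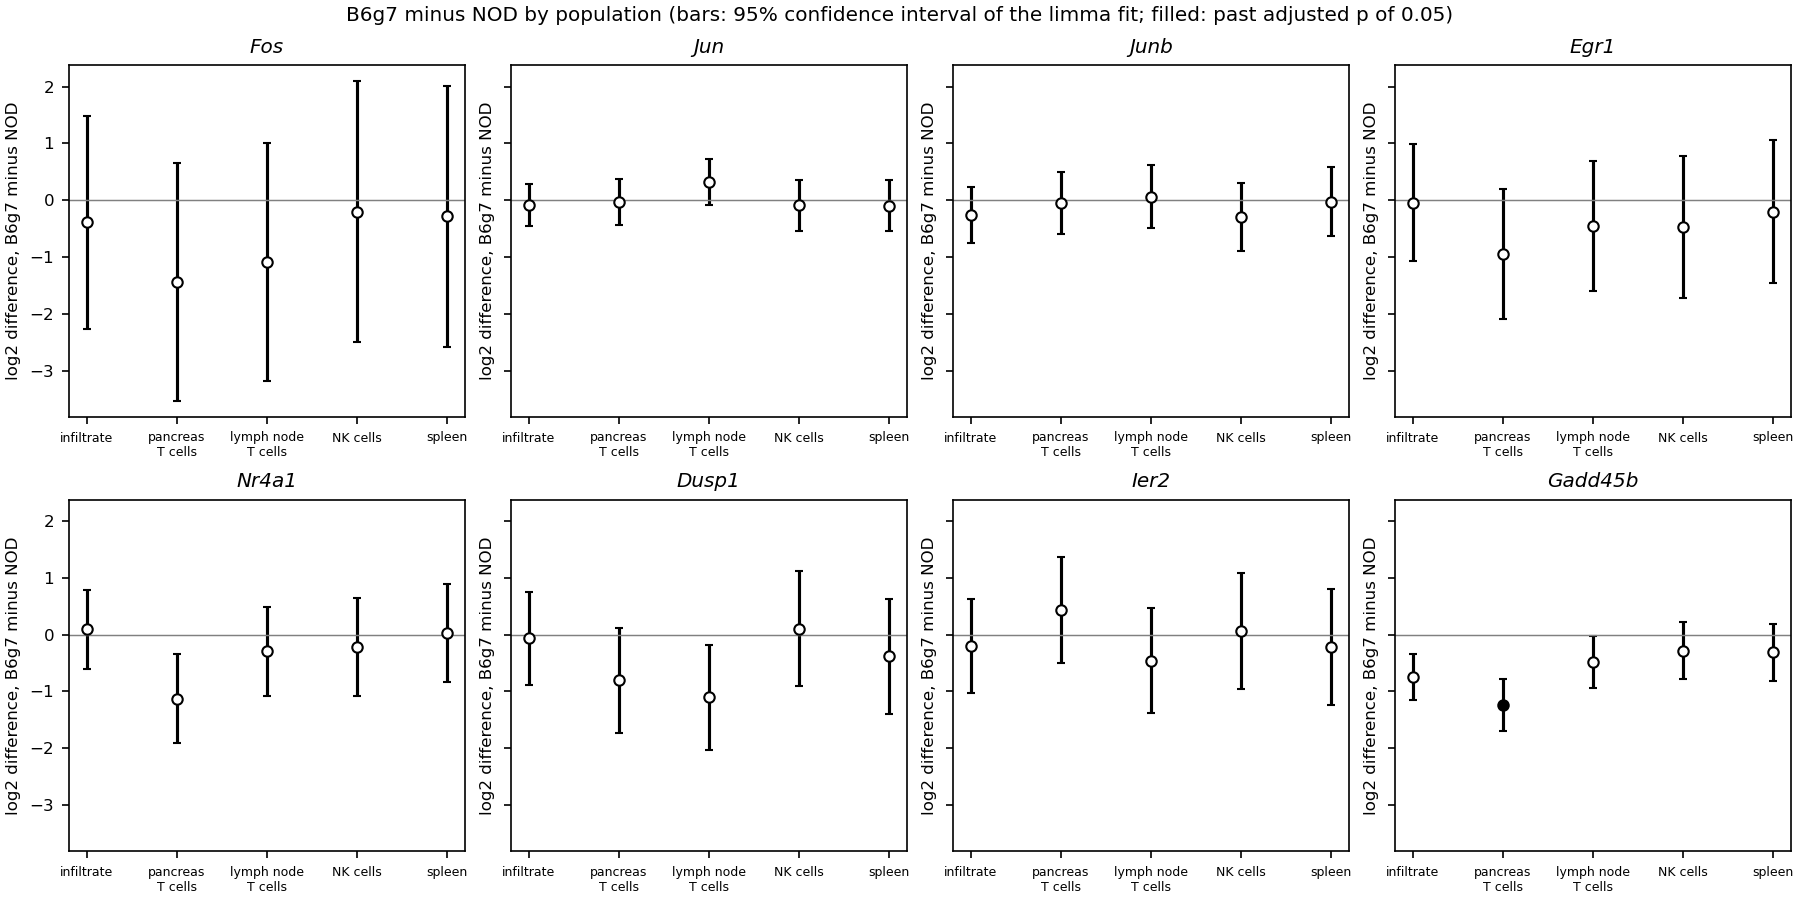
Log2 difference B6g7 minus NOD (y axis) of each gene's brightest probe set in the 5 populations (x axis), with the 95% confidence interval of the limma fit and filled points past an adjusted p of 0.05. Gadd45b in pancreatic T cells (-1.24) is the one filled point, and the Fos intervals are the widest.

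No other member passed between the backgrounds in any population. The percentages of all probe sets called were 0.274% in infiltrates, 0.129% in lymph node T cells, 0.0483% in NK cells and 0.0725% in spleen, with 0 member probe sets of 12 called in each by limma. At an unadjusted p under 0.05 there were 1 in infiltrates, where 4.19% of all probe sets had one, and 2 in lymph node T cells (6.96% of all). Pancreatic T cells had 3, the called Gadd45b probe set included (6.44% of all). There were 0 in NK cells (1.26% of all) and 0 in spleen (1.25% of all). Nr4a1 in pancreatic T cells read 6.95 and 7.27 on B6g7, against 8.55, 7.24 and 8.93 on NOD. NOD array 2 lay among the B6g7 arrays, and the difference was -1.13 (SE 0.37, adjusted p = 0.431). Without NOD array 2 it was -1.63 with an adjusted p of 0.0239, without NOD array 1 it was -0.98 (0.44) and without NOD array 3 -0.79 (0.387). Without B6g7 array 1 or 2 it was -0.97 or -1.29. Dusp1 in lymph node T cells read 5.53 and 5.61 on B6g7, against 7.31, 6.41 and 6.31 on NOD. These arrays did not overlap, but the difference of -1.10 did not pass (SE 0.44, adjusted p = 0.622).

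The 8 genes, by their brightest probe sets, had a median B6g7 minus NOD difference of -0.87 in pancreatic T cells, -0.45 in lymph node T cells, -0.14 in infiltrates, -0.21 in NK cells and -0.21 in spleen. Over all probe sets the medians lay between -0.02 and 0.04. Medians of other genes of the response in T cells are given below with their lists. The median of the 8 genes shifted when single arrays were left out, but stayed below 0 in infiltrates and at both T cell sites. In pancreatic T cells it was -0.42 without NOD array 3 and -0.58 without B6g7 array 1, and in lymph node T cells it was -0.30 without B6g7 array 1. In infiltrates it was -0.06 without NOD array 2. It turned above 0 in NK cells without NOD array 2 (0.02) and in spleen without NOD array 1 (0.18), and in spleen it was -0.03 without B6g7 array 2 and -0.35 without NOD array 2. In pancreatic T cells 7 of the 8 were below 0 (Fos -1.44, Nr4a1 -1.13, Egr1 -0.94, Dusp1 -0.81, Gadd45b -1.24, Junb -0.05 and Jun -0.03) and Ier2 was above (0.43). A lower level in bulk samples can come from fewer cells with the transcript or from less of it per cell, which cannot be told apart here.

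Egr1 and Nr4a1, by their brightest probe sets, had their 3 highest group means in T cells. The remaining T cell group, B6g7 pancreas, averaged 7.44 for Egr1, below both infiltrate groups, and 7.11 for Nr4a1. Dusp1 and Gadd45b were also highest in a T cell group, but Fos was highest in NK cells, Junb and Ier2 in spleen and Jun in infiltrates. Egr1 (98579_at) read 7.75 and 9.02 in B6g7 and 8.51, 8.94 and 9.05 in NOD lymph node T cells. In pancreatic T cells it read 6.89 and 7.99 on B6g7 and 7.35, 8.20 and 9.60 on NOD. NK cells read 6.88 and 6.26 on B6g7 and 7.34 and 6.75 on NOD, below every lymph node array. Infiltrates read 7.36 to 8.54 on B6g7 and 7.36 to 8.34 on NOD, and spleens read 6.61 to 6.96 on B6g7 and 6.95 to 7.02 on NOD. By group mean the order ran from NOD lymph node T cells (8.83) down to B6g7 NK cells (6.57), and at each of the 9 steps the arrays of neighbouring groups overlapped.

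Nr4a1 had its highest group mean in NOD pancreatic T cells (8.24) and its second lowest in B6g7 pancreatic T cells (7.11). Its lymph node T cells read 7.69 and 7.89 on B6g7 and 8.40, 7.68 and 8.19 on NOD. NK cells read 6.91 and 6.92 on B6g7 and 6.68 and 7.57 on NOD, all below the lymph node arrays. Infiltrates read 6.99 to 7.74 and spleens 7.08 to 7.23. Over the 10 group means Egr1 and Nr4a1 correlated at r = 0.88, given as a description of groups that differ in cell type and amplification.

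NK cells, averaged over the backgrounds, had less Egr1 (98579_at) and Nr4a1 than lymph node T cells. The dim second Egr1 probe set went the other way. It averaged 4.29 on B6g7 and 4.215 on NOD in NK cells, against 3.98 and 3.93 in lymph node T cells. Over the 10 group means the 2 Egr1 probe sets correlated at r = -0.08. By the first probe set, the differences were as follows. Egr1 was 3.49-fold lower (log2 -1.80, SE 0.40, limma, adjusted p = 0.00517) and Nr4a1 1.89-fold lower (log2 -0.92, SE 0.28, adjusted p = 0.0306). These were 2 of the 12 member probe sets, in a comparison where 15.2% of all probe sets passed. The Egr1 call held in all 7 alternatives and all 9 fits without 1 array. The Nr4a1 call held in 4 of the 7 and 3 of the 9, and its adjusted p was 0.155 without NOD NK array 1, where the difference was -0.70. Without B6g7 NK array 1 or 2, its adjusted p was 0.0773 or 0.0872, without B6g7 lymph node array 1 or 2 it was 0.0539 or 0.101, and without NOD lymph node array 1 it was 0.0708. Fos ran the other way, at 1.70 (SE 0.74, adjusted p = 0.138), and did not pass, but its adjusted p was 0.0434 when only the 4 compared groups were fitted. Granulocyte, macrophage and B cell marker sums were higher on the NK arrays, as were the Gapdh ratios: 4.32 to 5.27 in NK cells and 2.83 to 3.84 in lymph node T cells. Macrophage sums (5 genes) were 9.39 to 11.15 in NK cells and 7.31 to 7.59 in lymph node T cells, and B cell sums (3 genes) were 9.49 to 10.34 in NK cells and 7.50 to 7.95 in lymph node T cells. Granulocyte sums were 8.05 to 14.26 in NK cells and 6.95 to 7.48 in lymph node T cells. RMA was named for 2 B6g7 and 1 NOD NK arrays and for no lymph node T cell array. The part of the marker sums, the Gapdh ratios and this processing in the result was not tested.

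**Figure D3:**
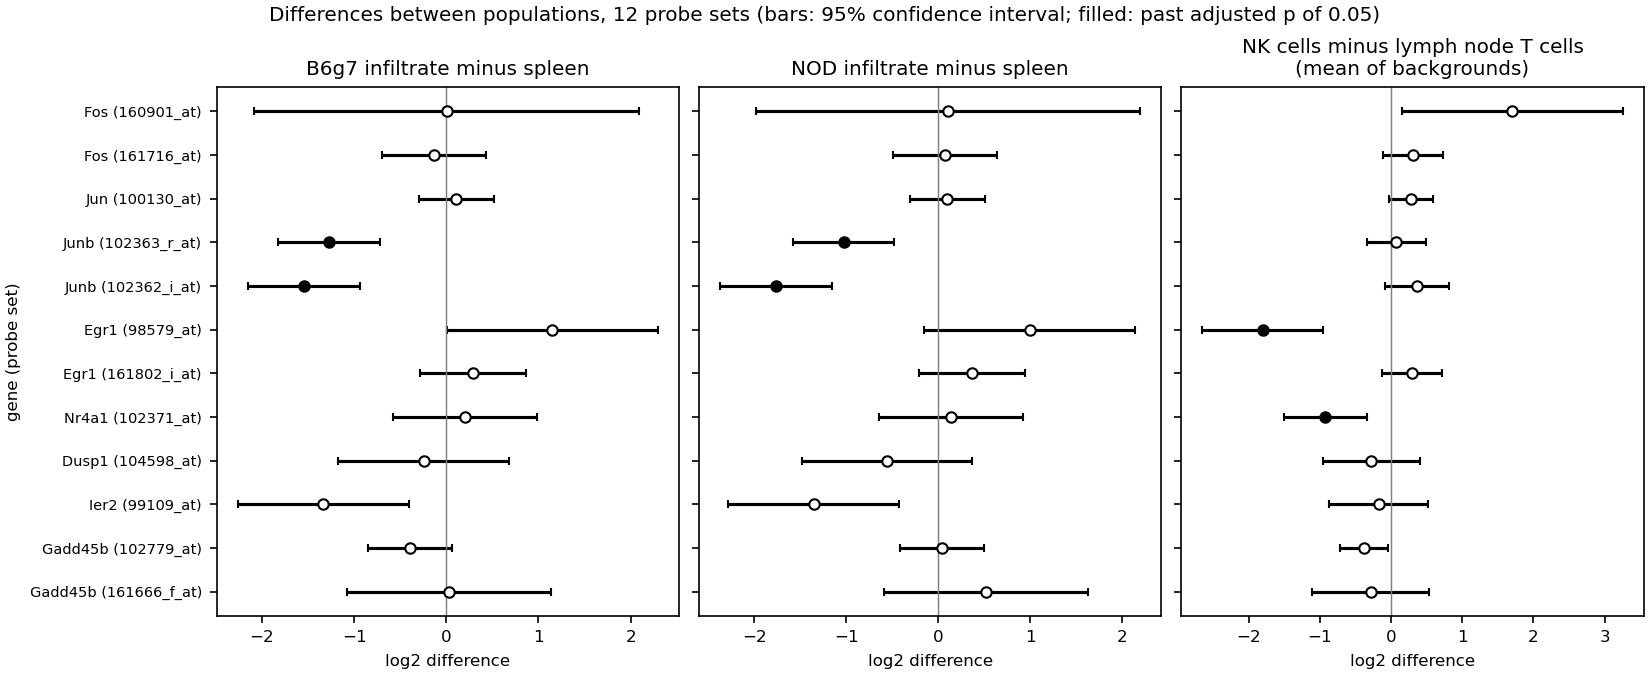
Log2 differences (x axis) of the 12 probe sets (rows) for infiltrate minus spleen on each background and for NK cells minus lymph node T cells, with 95% confidence intervals and filled points past an adjusted p of 0.05. Both Junb probe sets are lower in infiltrates, and the brightest Egr1 probe set and Nr4a1 are lower in NK cells.

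Junb, the AP-1 subunit, and Ier2 had their highest levels in spleen. Junb (102363_r_at) read 6.67 to 7.14 in B6g7 infiltrates, against 8.11 and 8.10 in B6g7 spleens. On NOD it read 6.72 to 7.36 in infiltrates, against 8.49 and 7.76 in spleens. No infiltrate array reached a spleen array, and all 20 arrays outside spleen lay between 6.64 and 7.56. Junb was 2.41-fold lower in infiltrate than in spleen on B6g7 (log2 -1.27, SE 0.26, limma, adjusted p = 0.00506) and 2.04-fold lower on NOD (log2 -1.03, SE 0.26, adjusted p = 0.0194). The other probe set (102362_i_at) gave -1.54 on B6g7 (adjusted p = 0.00252) and -1.76 on NOD (adjusted p = 6.98e-04). These were the 2 member probe sets that passed on each background, where 7.58% of all probe sets passed on B6g7 and 9.12% on NOD. The first probe set lost its call without either B6g7 spleen array (adjusted p = 0.0646 and 0.0537), without NOD spleen array 1 (0.368, difference -0.66) and without NOD infiltrate array 3 (0.0805). The second kept it in every fit run, but its NOD difference was -0.98 without NOD spleen array 1 and -2.55 without NOD spleen array 2.

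Ier2 read 7.96, 7.11 and 6.71 in B6g7 infiltrates, against 8.63 and 8.56 in B6g7 spleens. On NOD it read 7.79, 7.85 and 6.74 in infiltrates, against 9.30 and 8.33 in spleens. Infiltrates and spleens did not overlap on either background, but the differences of -1.33 (SE 0.44, adjusted p = 0.080) and -1.35 (SE 0.44, adjusted p = 0.0664) did not pass. Without B6g7 infiltrate array 1 the B6g7 difference was -1.69 with an adjusted p of 0.0313. It was -1.26 (0.19) without infiltrate array 2 and -1.06 (0.257) without infiltrate array 3. Without B6g7 spleen array 1 or 2 it was -1.30 or -1.37. Junb and Ier2 correlated at r = 0.89 over the 10 group means, and at -0.35 over the 8 means without spleen. Spleen RNA had 1 round of amplification and infiltrate RNA 2. RMA was named for all 3 B6g7 infiltrates and no B6g7 spleen, and for both NOD spleens and no NOD infiltrate. Population, amplification and named processing therefore cannot be told apart for either gene. B cell marker sums also differed, at 10.65 to 11.01 in infiltrates and 12.07 to 12.33 in spleens, and their part was not tested. No member passed the difference of the infiltrate minus spleen contrasts between backgrounds (B6g7 minus NOD), where 0.0403% of all probe sets did. At an unadjusted p under 0.05 there were 0 members and 1.20% of all probe sets.

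Fos varied more between arrays of a group than almost any other transcript. Its standard deviation within groups (160901_at) was 1.19 log2 units over 14 residual degrees of freedom, at the 98.99th percentile of all probe sets, and that of Egr1 was 0.65, at the 94.57th. Spleens of B6g7 read 7.17 and 4.83 and those of NOD 8.08 and 4.49, so replicate 1 was high and replicate 2 low on both backgrounds. Pancreatic T cells read 3.78 and 5.03 on B6g7, the first within the range of the absent liver transcript Fabp1, and 4.74, 5.20 and 7.59 on NOD. Lymph node T cells read 4.67 and 6.03 on B6g7 and 6.74, 5.69 and 6.86 on NOD. The Fos values 4.83, 4.49, 4.74 and 4.67 lay within the range of the absent liver transcript Alb (4.01 to 4.90). Infiltrates spanned 5.63 to 6.71 on B6g7 and 5.68 to 7.13 on NOD. NK cells had the highest group means, at 7.50 on B6g7 and 7.70 on NOD, but their arrays (6.77 to 8.27) overlapped those of several other groups. Fos passed in no comparison fitted over all 24 arrays, and its 95% intervals for B6g7 minus NOD were wide, such as -3.53 to 0.65 in pancreatic T cells.

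Fos, Dusp1 and Nr4a1 deviated from their group means together. Over the 24 arrays the deviations correlated at 0.60 between Fos and Dusp1, 0.51 between Fos and Nr4a1, and 0.69 between Nr4a1 and Dusp1, beside a median of 0.00 over the 28 pairs of members. Gadd45b went against Nr4a1 (r = -0.65) and Dusp1 (-0.50). Junb deviated with Ier2 (0.67) and with Gadd45b (0.66). Other pairs were of similar size: Jun with Gadd45b (0.565) and Junb (0.51), and Nr4a1 against Junb (-0.59) and Jun (-0.55). The 28 pairs ran from -0.65 to 0.69, with 14 above 0. Dusp1 deviated most on NOD pancreatic array 2 (-0.985, with Nr4a1 at -0.998) and on the NOD spleens. There Dusp1 was at 0.719 and -0.719, with Fos at 1.795 and -1.795. NOD pancreatic array 3 was high in Fos, Egr1, Nr4a1 and Dusp1, while array 2 of that group was below its group mean in all of these and above it in Gadd45b and Junb. The Gapdh difference was 2.78 on array 3 and 4.87 on array 2, the lowest and highest of the 3, and its part in these deviations was not tested. The points share library and depth of amplification, and the correlations describe these arrays only.

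**Figure D4:**
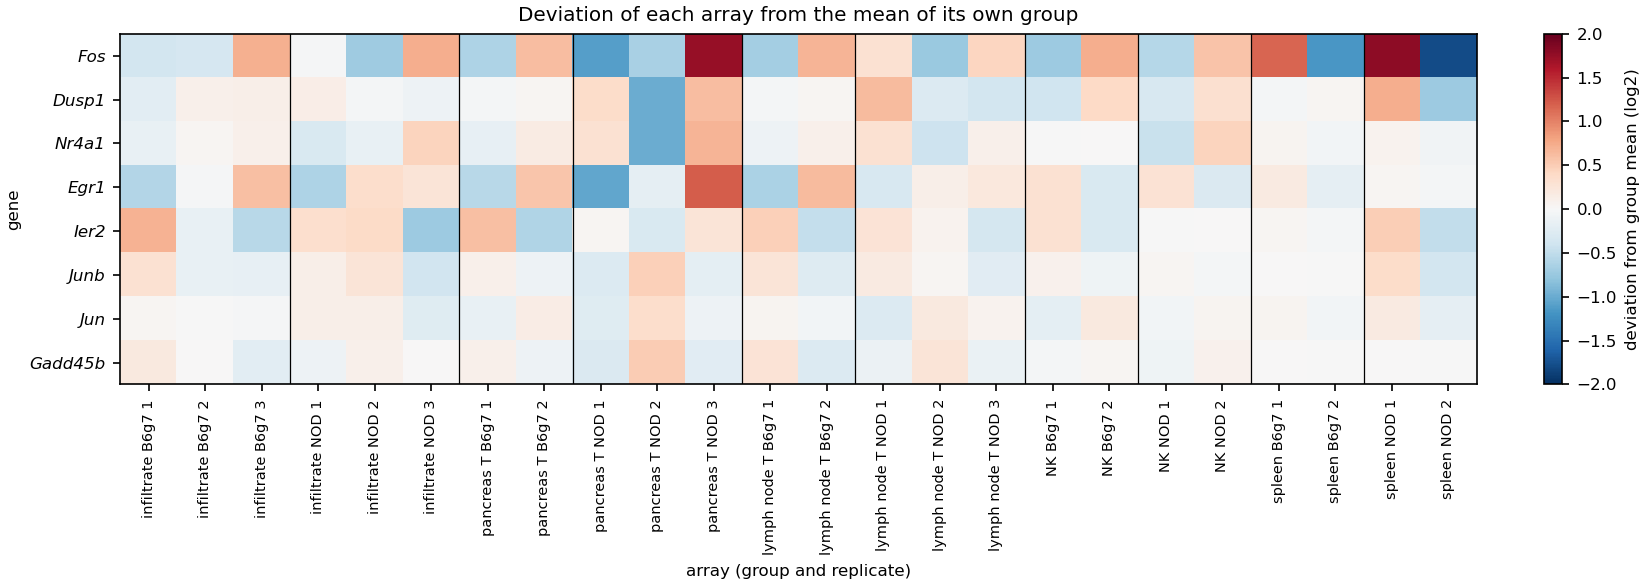
Deviation of each array (x axis) from the mean of its own group, in log2 units by colour, for the brightest probe set of each gene (rows), with lines between groups. Fos has the strongest colours, and NOD pancreatic arrays 2 and 3 differ in opposite directions for Fos, Dusp1, Nr4a1, Egr1 and Gadd45b.

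Between pancreas and lymph node, T cells showed no member past the threshold on either background or in the interaction. By limma 0 of all 12422 probe sets passed on B6g7 and 0.0161% on NOD, with 0 members on B6g7 and 3 on NOD at an unadjusted p under 0.05, beside 0.652% of all probe sets on B6g7 and 18.2% on NOD. Dusp1, the MAP kinase phosphatase, read 4.84 and 4.93 in B6g7 pancreas, against 5.53 and 5.61 in B6g7 lymph node, without overlap (difference -0.69). In NOD pancreas it read 6.06, 4.71 and 6.32, against 7.31, 6.41 and 6.31 in NOD lymph node, where arrays overlapped, a difference of -0.98 (SE 0.39, adjusted p = 0.20). The Dusp1 values 4.84 and 4.71 lay within the range of the absent liver transcript Alb (4.01 to 4.90). Taken by replicate number, pancreas minus lymph node was -0.69 and -0.68 on B6g7 and -1.24, -1.70 and 0.00 on NOD, so 4 of 5 pairs lay below 0 and 1 stood at 0. Without NOD pancreatic array 3 the NOD difference was -1.29 with an adjusted p of 0.046. Without any other single array it lay between -1.16 and -0.49, with an adjusted p of 0.168 to 0.693. The replicate block, which uses the pairs, gave the NOD difference of Dusp1 an adjusted p of 0.105. For Gadd45b the same pairs gave -0.55 and -0.20 on B6g7, and 0.22, 0.62 and 0.28 on NOD. The interaction for Gadd45b was -0.75 (SE 0.31, adjusted p = 0.998), and 0 of all probe sets passed it, with 1 member at an unadjusted p under 0.05, beside 2.83% of all probe sets. Infiltrates against pancreatic T cells, averaged over backgrounds, gave 0 members past the threshold, where 7.45% of all probe sets passed. At an unadjusted p under 0.05 there was 1 member, beside 21.7% of all probe sets.

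Other genes of the response were taken from 3 lists. Of 15 measured transcription factors and related genes (of 20 listed), 21 stress signal and feedback genes (of 25) and 13 heat shock genes (of 15), 0 passed by limma in any B6g7 minus NOD comparison, between T cell sites or in the interactions. At an unadjusted p under 0.05, of these 49 genes, there were 6 for B6g7 minus NOD in pancreatic T cells (6.44% of all probe sets), 4 in lymph node T cells (6.96% of all), 1 in spleen (1.25% of all) and 0 in infiltrates (4.19% of all) and NK cells (1.26% of all). Between the sites there were 0 on B6g7, beside 0.652% of all probe sets, and 12 on NOD, beside 18.2%. In the interactions there were 6 for the T cell sites, beside 2.83% of all probe sets, and 0 for infiltrate minus spleen, beside 1.20%. Between the T cell sites the heat shock genes had a median of -0.36 for pancreas minus lymph node in B6g7, with 1 of 13 above 0, and of -0.72 in NOD, with 2 of 13 above 0. The medians over all probe sets were 0.00 in B6g7 and 0.07 in NOD. For B6g7 minus NOD in pancreatic T cells, the transcription factor list had a median of -0.034, with 7 of 15 above 0. The feedback list had 0.074 (15 of 21 above 0) and the heat shock list -0.378 (2 of 13 above 0). In lymph node T cells the 3 medians were 0.112 (10 of 15 above 0), -0.11 (9 of 21) and -0.465 (3 of 13).

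Against spleen, the infiltrates differed in several of the list genes in both directions. Klf6, a zinc finger factor, rose by 1.57 on B6g7 (adjusted p = 0.00301) and 1.46 on NOD (adjusted p = 0.00503), and Klf10 by 1.39 on B6g7 and 1.40 on NOD. The heat shock relative Hspa4 rose by 1.04 on B6g7 and 1.89 on NOD. Nfkbia, the inhibitor of NF-kB, gave -1.67 on B6g7 (adjusted p = 0.0111) and -1.35 on NOD (adjusted p = 0.0365), and Dusp2, a nuclear MAP kinase phosphatase, -1.67 on B6g7 and -1.45 on NOD. Zfp36, which binds and destabilises cytokine transcripts, gave -1.19 on B6g7 and -1.0 on NOD. Nab2, a corepressor of EGR factors, passed on B6g7 at -1.68. Myc, a growth regulator, passed on both backgrounds, at -1.04 on B6g7 and -1.30 on NOD. Of the 15 transcription factor genes 2 passed as higher and 3 as lower on B6g7, and 2 as higher and 2 as lower on NOD. Of the 21 feedback genes 3 passed as lower and 0 as higher on each background. Of all probe sets 2.95% passed as higher and 4.64% as lower on B6g7, and 3.86% as higher and 5.26% as lower on NOD. The differences in amplification and in named processing apply to all of these.

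Infiltrates had more Dusp6, Rgs2, Klf4 and Klf6 than pancreatic T cells. Dusp6, a phosphatase of ERK, differed by 1.71 (adjusted p = 2.68e-04), Rgs2, a regulator of G protein signalling, by 1.65, Klf4 by 1.57 and Klf6 by 1.09. Klf4 read 3.80 to 4.20 in pancreatic T cells and 3.74 to 4.08 in lymph node T cells, within the range of the absent liver transcript Fabp1. If that is the lowest level its probe set can show, its true differences from both may be larger. Among the feedback genes 5 of 21 passed as higher and 0 as lower, where 5.72% of all probe sets passed as higher and 1.72% as lower, with a median of 0.19 beside -0.02 over all probe sets. Macrophage marker sums were 9.80 to 11.38 in infiltrates and 7.52 to 8.53 in pancreatic T cells, and their part was not tested. NK cells had more Rgs2 (2.30, adjusted p = 1.27e-04) and Klf4 (2.13, adjusted p = 0.00129) than lymph node T cells, as well as more Rhob (1.33) and Sgk1 (1.16). They had less Hspa8 (-1.75), Mcl1, a survival protein of the BCL2 family (-1.60, adjusted p = 2.83e-05), Btg2 (-1.24) and Hspa4 (-0.93). Of the 49 list genes 13 passed here, beside 15.2% of all probe sets. Klf4 varied widely between NK arrays, from 4.72 on a B6g7 array to 7.51 on a NOD array. Macrophage marker sums were 9.39 to 11.15 in NK cells and 7.31 to 7.59 in lymph node T cells, and their part was not tested.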

How the data were processed

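RNA of 24 samples was measured on mouse oligonucleotide arrays and used as 1 table of linear intensity per probe set, as deposited by the authors. Per the submitters' processing notes, 11 arrays were processed with RMA. The sources used here give no method for the other 13, and no version or parameter. Array medians ran from 35.1 to 39.1, and the number of arrays limits the precision. The smallest value was 5.70, so log2 was taken with no pseudocount.

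Of 12488 probe sets, 66 controls were left out. Symbols came from the platform annotation, updated through Entrez identifiers in RefSeq GRCm38.p6: 10833 probe sets had exactly 1 gene, 1193 none and 396 several. The members, lists and comparisons were chosen with earlier results of these data known, and the average over populations and the omission of arrays with liver transcripts after seeing the data. All member probe sets are named. From the 3 lists, with the brightest probe set standing for its gene, up to 4 rises and 4 falls of largest difference per comparison are named among those past the threshold. The closest patterns are the 5 genes with the highest Pearson correlation over group means.

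One model of 10 group means was fitted with limma (version 3.58.1, R 4.3.3) to the log2 values, using lmFit, contrasts.fit and eBayes. P-values are two-sided and adjusted by Benjamini-Hochberg over 12422 probe sets within each comparison, with a threshold of 0.05. The fit was tested on simulated data. Deviations of same-numbered arrays over all probe sets correlated at 0.34, 0.36 and 0.29 for the 3 pancreas and lymph node pairs of NOD T cells. Those numbers were taken to pair the samples, although the ages differ in pair 2 (24 and 22 days). The main fit left this pairing out, and only the replicate block used it. The alternatives tried were quantile normalization, array median centring, a robust prior with a trend, omission of the dimmest 40% of probe sets, fits of the compared groups alone, a replicate block, serial code runs as a block (infiltrates), omission of single arrays and of arrays with liver transcripts, the most variable probe set per list gene, and Spearman correlation. Marker sums are log2 of summed intensities.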

Additional observations from a re-analysis of the deposited data

How the results depend on the processing

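Counts are of the 12 member probe sets past the threshold. For pancreatic T cells, B6g7 minus NOD, the count was 1. It was 0 after quantile normalization, when only the compared groups were fitted and without the arrays that carry liver transcripts, 2 with a replicate block, and 0 to 2 when single arrays were left out. For NOD T cells, pancreas minus lymph node, it was 0, and 0 to 2 without single arrays. For infiltrate minus spleen it was 2 on B6g7, 4 without the arrays that carry liver transcripts (Ier2 and the dim Egr1 probe set added) and 1 to 3 without single arrays. On NOD it was 2, 1 with a replicate block and 1 to 2 without single arrays. For NK cells minus lymph node T cells it was 2, 3 when only the compared groups were fitted (Fos added), 1 after quantile normalization, with a replicate block and without the arrays that carry liver transcripts, and 1 to 2 without single arrays. The other comparisons, the average over populations included, kept their counts under all alternatives run. No difference past the threshold changed sign.

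The replicate block moved the pancreatic T cell difference of Gadd45b to -1.35 (adjusted p = 0.0070), that of its second probe set to -2.41 (0.0112), Junb 102363_r_at in NOD infiltrate minus spleen to -0.84 (0.0891) and Nr4a1 in NK cells minus lymph node T cells to -0.90 (0.0728). It changed no other member call, the paired NOD site comparison included. Labels give no shared source for the numbers, and only the NOD T cell sites met the pairing check over 3 pairs. The B6g7 T cell sites had 2 pairs, whose ages match (25 and 22 days) and whose deviations correlated at 0.79. With 2 arrays per group both pairs must give the same value. Over all probe sets the count called in pancreatic T cells, B6g7 minus NOD, was 307 with the block, against 18. In each moved difference named here, NOD array 3 of 1 group had no same-numbered partner, so the block set that array aside. The differences equal those without it. They were -1.35 and -2.41 without NOD pancreatic array 3, -0.84 without NOD infiltrate array 3 and -0.90 without NOD lymph node array 3. The count over all probe sets was 119 without NOD pancreatic array 3. The part of the pairing in the changes of adjusted p was not tested. Dim signal limits Jun and the second Fos and Egr1 probe sets, which may lie near the level of an absent transcript and cannot show a fall below it.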

Other observations

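The genes whose group means followed Fos most closely were Ctsc, the protease cathepsin C (r = 0.95 over 10 group means), Ei24 (0.92), the SUMO activating subunit Sae1 (0.91), Wls (0.91) and the cohesin subunit Rad21 (0.89), among 1432 genes whose group means had an SD of at least 0.5. Ctsc averaged 8.26 in B6g7 and 8.33 in NOD NK cells, against 5.32 in B6g7 and 6.09 in NOD pancreatic T cells. With Spearman correlation, Wls and Rad21 were among the 5 closest again. The genes closest to the mean of the 8 members were the RNA binding protein Hnrnpc (0.86), the TRAF binding protein Tank (0.83), the replication helicase subunit Mcm5 (0.83), the proteasome subunit Psmd6 (0.78) and the G protein subunit Gng10 (0.77), of which Hnrnpc and Psmd6 were again among the 5 closest by Spearman correlation. These are descriptions of 10 group means that differ in cell type and amplification.

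In infiltrates, where array serial codes fall into runs, Gadd45b was lower on B6g7 within both runs that held both backgrounds, by -0.54 (1 array against 2) and by -0.95 (1 against 1).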
